A study of Mus musculus with 6 samples.

Results

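The genes described here encode the kinases CDK6 and CDK4 and the D-type cyclins that bind them: Cdk6, Cdk4, Ccnd1, Ccnd2 and Ccnd3. They were taken by gene symbol, as 5 of the 25965 rows of a table of read counts, and each symbol had 1 row. All 5 were among the 10896 rows that passed the low-count filter of the test. RNA was sequenced from 6 mouse cell lines that carry the BCR-ABL fusion kinase of the Philadelphia chromosome. The 3 lines labelled Cdk6 wild type (WT1, WT2 and WT3) received the control plasmid pSpCas9(BB)-2A-GFP(px458). The 3 lines labelled Cdk6 knock out (KO1, KO2 and KO3) belong to the arm given the plasmid that also expresses guide RNAs against the kinase, pSpCas9(BB)-2A-GFP(px458)-hCDK6del. In both arms cells were electroporated, sorted for GFP after a day and plated as single cells, so a line may be 1 clone, and loss of CDK6 protein was checked by Western blot. WT and KO below name the libraries as labelled. The labels do not say that libraries came from separate cultures of a line, so the tests measure the spread between these 6 libraries.

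D-type cyclins are the growth-factor-responsive subunits of the G1 cell cycle engine. They bind CDK4 or CDK6, the complex phosphorylates the retinoblastoma protein and its relatives, and E2F factors are then released to drive genes for DNA replication. INK4 proteins block both kinases. In precursor B cells cyclin D3 is the D cyclin most needed for proliferation, while in BCR-ABL leukaemia CDK6 has been described as a transcriptional regulator beside its role as a kinase. In bulk RNA, fewer cells with a transcript and less transcript per cell cannot be told apart.

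The comparison of paralogs rests on reads that can be assigned to one gene, so the stretches where the genes are most alike are shown. The coding sequences of Cdk6 and Cdk4 were identical at 616 of 900 aligned bases (68.4%), and the longest run shared by their reference transcripts was 20 bases. The most similar window of 60 bases within 1 exon had 48 identical positions. It lies in exon 4 of 8 in both genes and codes for the start of the activation segment, which holds the threonine phosphorylated by the CDK-activating kinase. Capitals mark the 12 positions at which the sequences differ, which are read 5′ to 3′ on the strand of the gene from GENCODE transcripts of GRCm38 (Cdk6 at chr5:3429099-3429158, plus strand; Cdk4 at chr10:127064943-127065002, plus strand).
Cdk6: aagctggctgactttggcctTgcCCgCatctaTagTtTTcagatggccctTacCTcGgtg
Cdk4: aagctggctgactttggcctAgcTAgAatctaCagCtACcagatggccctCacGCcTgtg

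Among the cyclins, Ccnd1 and Ccnd2 were identical at 67.9% of aligned coding bases, Ccnd1 and Ccnd3 at 63.8%, and Ccnd2 and Ccnd3 at 68.5%. The longest runs shared by their transcripts were 20, 17 and 14 bases. The most similar window of 60 bases had 45 positions identical in all 3 genes. It codes for a stretch near the start of the cyclin box, the fold that contacts the kinase, in exon 2 of 5 of Ccnd1 (chr7:144938043-144938102, minus strand), exon 2 of 5 of Ccnd2 (chr6:127148820-127148879, minus strand) and exon 4 of 7 of the Ccnd3 transcript used (chr17:47594734-47594793, plus strand). Capitals mark positions that are not the same in all 3.
Ccnd1: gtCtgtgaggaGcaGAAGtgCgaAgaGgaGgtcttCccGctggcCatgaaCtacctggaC
Ccnd2: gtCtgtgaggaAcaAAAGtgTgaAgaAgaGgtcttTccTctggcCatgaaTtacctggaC
Ccnd3: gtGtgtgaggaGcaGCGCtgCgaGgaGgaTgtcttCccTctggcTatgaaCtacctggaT
Each of the 5 genes overlaps a gene on the other strand: Tspan31 with Cdk4 over 641 bases, Bysl with Ccnd3 over 361 bases and Oraov1 with Ccnd1 over 1771 bases had counts, and Cdk6 and Ccnd2 overlap antisense transcripts. The strand setting was not known, so how reads from the shared stretches were counted is not known either. Overlaps were measured between whole gene spans, which include introns.

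Total counts ran from 17859519 to 24108563. KO2 stood apart from the other libraries: its Pearson correlation with them across tested genes, on log2 values, was 0.881 to 0.942, whereas the other 5 libraries correlated with each other at 0.954 to 0.993. Early B cell markers were present in every line (9 of 9 with counts; summed level 4210 to 4267 CPM, the count scaled by the library total, in WT and 3372 to 4828 CPM in KO). The defining T cell markers Cd3e, Cd4 and Cd8a were at 0 in all 6 libraries, and the 4 T cell markers summed to at most 0.728 CPM. The 5 myeloid markers summed to 28.2 to 43.9 CPM in WT and 16.0 to 43.4 CPM in KO, with Elane at 0 throughout. The sum hides opposite changes. Lyz2 lay at 26.8 to 38.7 CPM in WT and 12.4 to 15.3 in KO, below WT as were 8.68% of tested genes. Itgam lay at 29.5 CPM in KO1 and at 0.248 to 4.90 in the other libraries. The 3 erythroid markers reached at most 6.94 CPM and the 3 stromal markers at most 0.0496 CPM.

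No member passed the genome-wide test of KO against WT. In edgeR's quasi-likelihood test with Benjamini-Hochberg adjustment over all tested genes, 0 of the 5 had an adjusted p under 0.05, beside 0.0% of all tested genes. At an unadjusted p under 0.05 there were again 0 of 5, beside 9.45% of all tested genes. DESeq2 called 0 of 5 by adjusted p, beside 1.94% of the genes it tested (1.24% lower and 0.705% higher in KO). By unadjusted DESeq2 p under 0.05 there was 1 of 5, Ccnd2 (higher, DESeq2 unadjusted p = 0.0437, adjusted p = 0.4085). limma-voom called 0 of 5 by adjusted p and 0 of 5 at an unadjusted p under 0.05, beside 0.0% and 9.55%. The median log2 fold change of the 5 was 0.14 and the median size of the change 0.16, beside 0.02 and 0.16 over all tested genes. The members differed widely in how far the lines spread.

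The library KO2 decided several of these values. Without it, 2 of 5 members had an unadjusted edgeR p under 0.05, Ccnd1 (lower) and Ccnd3 (higher), beside 18.8% of tested genes (9.72% lower and 9.12% higher), and 0 of 5 by adjusted p. Without both WT2 and KO2 it was 3 of 5, Ccnd1 (lower), Ccnd2 and Ccnd3 (higher), beside 16.3% (8.65% lower and 7.64% higher), and again 0 of 5 by adjusted p. DESeq2 called 1 of 5 by adjusted p without KO2, beside 5.95% (3.68% lower and 2.27% higher), and 3 of 5 without both, beside 2.89% (1.72% lower and 1.17% higher). Leaving libraries out of DESeq2 was decided with the data in view.

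**Figure D1:**
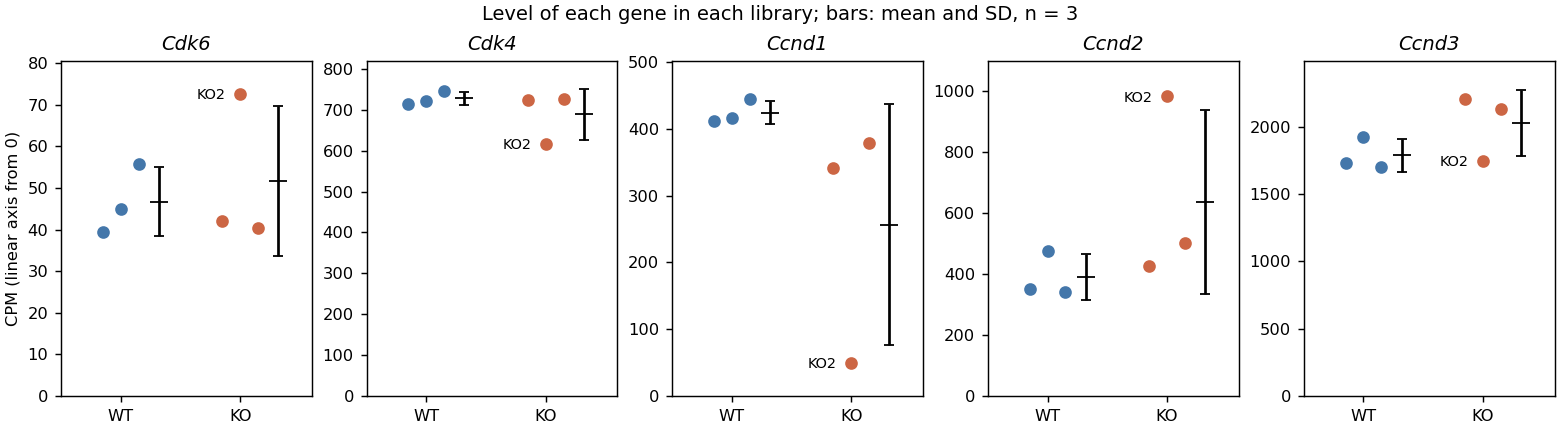
CPM of Cdk6, Cdk4, Ccnd1, Ccnd2 and Ccnd3 on linear axes from 0, 1 point per library (blue WT, orange KO, KO2 marked), with the mean and SD of each group of 3. KO2 is the highest library for Cdk6 and Ccnd2 and the lowest for Cdk4 and Ccnd1, at 49.4 CPM for Ccnd1.

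Cdk6, the targeted gene (chromosome 5, 3341004 to 3531008), lay at 39.4 CPM in WT1, 45.0 in WT2 and 55.8 in WT3, against 42.1 in KO1, 72.6 in KO2 and 40.4 in KO3. In CPM, KO1 and KO3 lay within the range of the WT lines, KO2 lay above all others, and the groups overlapped. With TMM scaling (trimmed mean of M-values) KO3, at 38.95, lay just below the lowest WT line, WT1 at 39.68, and the groups still overlapped. The counting interval of KO2 (95% Poisson, 68.9 to 76.4 CPM) did not reach that of the highest WT line, WT3 (52.6 to 59.1 CPM). WT averaged 46.7 ± 8.31 CPM and KO 51.7 ± 18.1 CPM (mean ± SD, n = 3 each), a log2 fold change of 0.14 ± 0.29 (SE; 95% interval -0.59 to 0.87; edgeR adjusted p = 0.90). The sign turned without KO2, to -0.22 (95% interval -0.61 to 0.16; edgeR adjusted p = 0.448). A count over a whole gene does not show a frameshift or a short deletion, so these values do not check the genotype.

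Cdk4, the paralog that can pair with the same cyclins (chromosome 10, 127063535 to 127067288), was the steadiest member. It lay at 714 CPM in WT1, 723 in WT2 and 747 in WT3, against 725 in KO1, 617 in KO2 and 725 in KO3. The WT coefficient of variation was 2.34%, KO1 and KO3 lay within the WT range, and KO2 was lowest. edgeR estimated a log2 fold change of -0.10 ± 0.06 (SE; 95% interval -0.26 to 0.06; adjusted p = 0.640). Whether the groups overlapped depended on the scale: with TMM factors (trimmed mean of M-values) the WT lines lay at 718, 734 and 748 CPM and the KO lines at 711, 637 and 700.1 CPM, all below WT. On that scale 2 of 5 members, Cdk4 and Ccnd1, had groups that did not overlap, beside 19.6% of tested genes (11.0% with KO below and 8.53% with KO above). KO1 and KO3 alone both lay below WT for the same 2 members, beside 21.9%, and above WT for Ccnd3, beside 19.9%. The upper bound of the interval was a rise of 0.06 on the log2 scale in the lines labelled knockout.

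The kinases differed far more from each other than between groups. Per kb of exon union, the combined length of all annotated exons, Cdk4 lay at 224 ± 5.25 CPM per kb in WT and 212 ± 19.3 in KO (SD, n = 3), and Cdk6 at 3.34 ± 0.594 and 3.70 ± 1.30 CPM per kb. Cdk6 thus made up 1.27% to 1.70% of the pooled per-length level of both kinases in the 5 libraries other than KO2, and 2.66% in KO2. As a share of counts it was 5.24% to 6.95% in those 5 libraries and 10.5% in KO2 (95% Wilson interval 10.0% to 11.1%). The log2 ratio of Cdk6 to Cdk4 counts was -4.18 in WT1, -4.01 in WT2 and -3.74 in WT3, against -4.11 in KO1, -3.09 in KO2 and -4.17 in KO3. The groups overlapped, with a difference of 0.19 (exact two-sided permutation test, p = 0.8, and 0.8 adjusted over the 4 ratios compared). Without KO2 it turned to -0.16.

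The pooled level of Cdk4 and Cdk6 followed Cdk4. It was 223 CPM per kb in WT1, 226 in WT2 and 234 in WT3, against 226 in KO1, 195 in KO2 and 226 in KO3. KO1 and KO3 lay within the WT range and KO2 below it, so the groups overlapped (WT 227 ± 5.84, KO 216 ± 18.0; SD, n = 3; log2 difference -0.08). Without KO2 the difference was -0.0071, and without WT2 and KO2 it was -0.0124. With TMM scaling all KO lines lay below all WT lines, at 222, 201 and 218 against 224, 229 and 234 CPM per kb. A sum over members was described and not tested.

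Ccnd1, which encodes cyclin D1 (chromosome 7, 144929931 to 144939831), was lower in every KO line and by far the lowest in KO2. It lay at 412 CPM in WT1, 416 in WT2 and 444 in WT3, against 341 in KO1, 49.4 in KO2 and 378 in KO3. All KO lines lay below all WT lines, the 1 member of 5 whose groups did not overlap on this scale, beside 19.3% of tested genes (8.68% with KO below). The spread within KO, 256 ± 180 CPM (SD, n = 3) against 424 ± 17.6 in WT, left the log2 fold change at -0.77 ± 0.67 (SE; 95% interval -2.43 to 0.89; edgeR adjusted p = 0.741). KO2 held 0.124 times the mean of the other 5 libraries.

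KO1 and KO3 also lay below the WT lines for Ccnd1, as did 16.0% of tested genes for this pair of lines. Without KO2 edgeR gave a log2 fold change of -0.28 ± 0.07 (SE; 95% interval -0.45 to -0.12), with an edgeR unadjusted p of 0.00651 and adjusted p of 0.194. DESeq2 called Ccnd1 lower without KO2 (-0.28, adjusted p = 0.00647) and without both WT2 and KO2 (-0.29, adjusted p = 0.0492). Over all 6 libraries neither tool called it.

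Ccnd2, which encodes cyclin D2 (chromosome 6, 127125162 to 127152188), was highest in KO2. It lay at 352 CPM in WT1, 477 in WT2 and 341 in WT3, against 426 in KO1, 985 in KO2 and 502 in KO3. KO2 held 2.35 times the mean of the other 5 libraries, whereas KO1 lay below WT2 and the groups overlapped. edgeR estimated a log2 fold change of 0.70 ± 0.37 (SE; 95% interval -0.22 to 1.63; adjusted p = 0.592), and 0.20 ± 0.17 without KO2 (edgeR adjusted p = 0.530). Without both WT2 and KO2 it was 0.38 ± 0.09, called by DESeq2 (adjusted p = 0.0162) and not by edgeR (adjusted p = 0.243).

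Ccnd3, which encodes cyclin D3 (chromosome 17, 47505051 to 47599689), had the highest counts of the 5. It lay at 1729 CPM in WT1, 1925 in WT2 and 1703 in WT3, against 2202 in KO1, 1747 in KO2 and 2131 in KO3. KO1 and KO3 lay above all WT lines, as did 26.6% of tested genes for this pair of lines, and KO2 lay within the WT range. edgeR estimated a log2 fold change of 0.16 ± 0.09 (SE; 95% interval -0.07 to 0.39; adjusted p = 0.624). Without KO2 it was 0.23 ± 0.08 (edgeR adjusted p = 0.226; DESeq2 adjusted p = 0.0695). Without both WT2 and KO2 it was 0.30 ± 0.05 (edgeR adjusted p = 0.227), and DESeq2 called it (adjusted p = 0.000875).

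**Figure D2:**
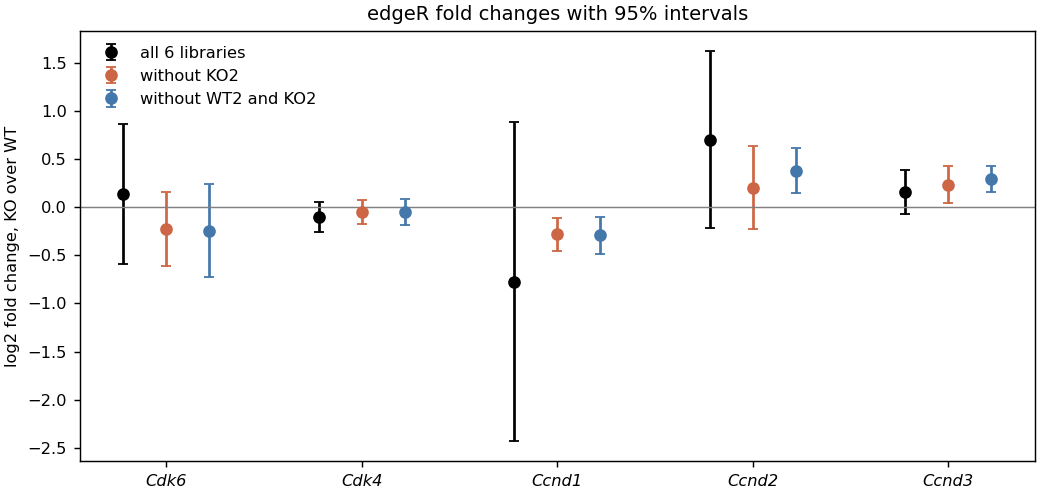
Log2 fold change of KO over WT for each gene with its 95% interval from edgeR, over all 6 libraries (black), without KO2 (orange) and without WT2 and KO2 (blue). The interval of Ccnd1 narrows from -2.43 to 0.89 with all libraries to -0.45 to -0.12 without KO2, and the estimate of Cdk6 changes sign.

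Ratios between the cyclins compare paralogs within a library, free of its scaling. The log2 ratio of Ccnd1 to Ccnd3 was -2.07 in WT1, -2.21 in WT2 and -1.94 in WT3, against -2.69 in KO1, -5.15 in KO2 and -2.50 in KO3. All KO lines lay below all WT lines, by 1.37 on average on the log2 scale (exact two-sided permutation test, p = 0.1, the smallest that 3 against 3 libraries allow; 0.2 adjusted over 4 ratios). Without KO2 the difference was -0.52, with the groups still apart. Expressed as counts, there were 3.83 to 4.63 Ccnd3 counts for each Ccnd1 count in WT, 6.45 in KO1, 5.64 in KO3 and 35.4 in KO2.

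The log2 ratio of Ccnd2 to Ccnd1 was -0.23 in WT1, 0.20 in WT2 and -0.38 in WT3, against 0.32 in KO1, 4.32 in KO2 and 0.41 in KO3. The KO lines all lay above the WT lines, with a mean difference of 1.82 (exact two-sided permutation test, p = 0.1, adjusted 0.2), and of 0.50 without KO2. The nearest lines across the groups were WT2 and KO1. Ccnd1 enters both ratios whose groups lay apart, and its own CPM also separated them, as did 19.3% of tested genes. The share of other gene pairs that separate the groups was not computed. The ratio of Ccnd2 to Ccnd3 did not separate the groups. It was -2.30, -2.01 and -2.32 in WT and -2.37, -0.83 and -2.08 in KO1, KO2 and KO3 (difference 0.45, exact two-sided permutation test, p = 0.7, adjusted 0.8), and the difference was -0.02 without KO2.

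Summed over the 3 cyclins, the lines were more alike than for Ccnd1 or Ccnd2 alone. The pooled level was 322 CPM per kb of exon union in WT1, 358 in WT2 and 325 in WT3, against 369 in KO1, 314 in KO2 and 376 in KO3. KO1 and KO3 were highest, KO2 was lowest, and the groups overlapped (WT 335 ± 20.3, KO 353 ± 33.9; SD, n = 3; log2 difference 0.07). Without KO2 the difference was 0.155, and without WT2 and KO2 it was 0.205. The order of the lines held for this scale alone: as a plain CPM sum WT3 was lowest (2488), KO2 lay above WT1 and WT3, and the difference was 0.17, while with TMM scaling WT2 was highest (364 CPM per kb) and WT1 lowest (324). The groups overlapped on each of these scales. Per kb of exon union the 6 libraries spanned 0.26 on the log2 scale, against 3.17 for Ccnd1, 1.53 for Ccnd2 and 0.37 for Ccnd3. Ccnd3 made up most of this pool, 59.8% to 68.1% in the 5 libraries other than KO2 and 63.4% in KO2. The pool spanned less than Ccnd3 alone, and what kept its span narrow was not tested. KO2 minus the mean of the other 5 libraries was -349 CPM for Ccnd1, 565 CPM for Ccnd2 and -191 CPM for Ccnd3. The plain CPM sum of the 3 was 2781 in KO2 against a mean of 2756 in the other 5.

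The make-up of the D cyclin pool in KO2 differed from that in the other lines. Per kb of exon union, Ccnd1 made up 27.0% ± 2.21 (SD, n = 3) of the D cyclin level in WT, 19.7% in KO1, 21.3% in KO3 and 3.34% in KO2. Ccnd2 made up 12.3% ± 1.61 in WT, 12.3% in KO1, 14.2% in KO3 and 33.3% in KO2. The share of Ccnd3 was 60.7% ± 0.822 in WT and 68.1%, 63.4% and 64.5% in KO1, KO2 and KO3, so it was above the WT lines in each KO line. As shares of counts in KO2, Ccnd1 was 1.78% (95% Wilson interval 1.67% to 1.89%) and Ccnd2 35.4% (35.0% to 35.8%). By counts the share of Ccnd3 in KO2 was 62.8%, below the WT lines, so the order of the groups for Ccnd3 depends on the lengths used.

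**Figure D3:**
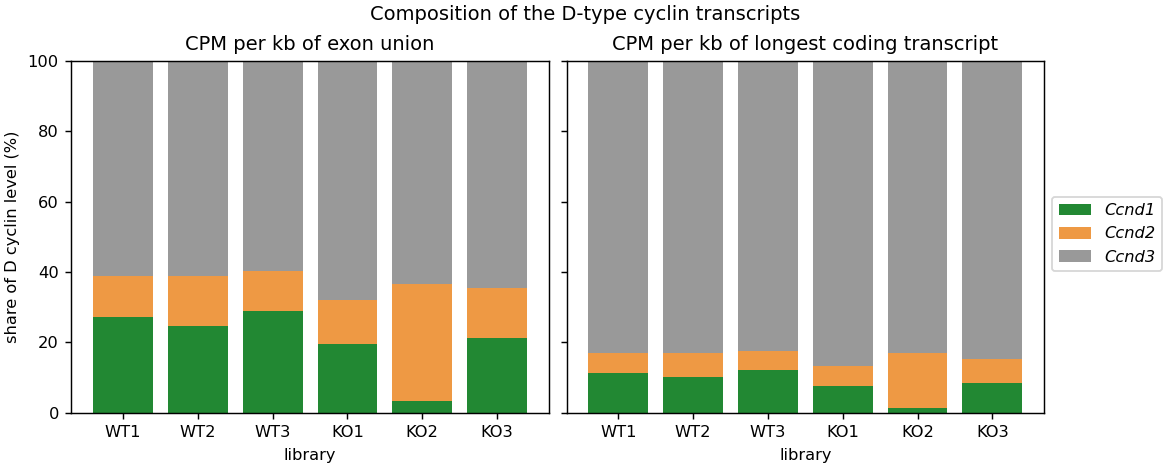
Stacked bars of the share, in percent, of Ccnd1 (green), Ccnd2 (orange) and Ccnd3 (grey) in the D cyclin level of each library, per kb of exon union (left) and per kb of the longest protein-coding transcript (right). KO2 has the smallest Ccnd1 and the largest Ccnd2 share on both scales, 3.34% and 33.3% on the left and 1.33% and 15.6% on the right.

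In the order of levels per length, the lowest place alone held in all libraries for every length used. Cdk6 was lowest in all 6 libraries, and Ccnd1 stood above Ccnd2 in 5 libraries and below it in KO2. Per kb of exon union Cdk4 exceeded Ccnd3 in the 3 WT lines (224 ± 5.25 against 203 ± 13.8 CPM per kb) and lay below it in the 3 KO lines (212 ± 19.3 against 231 ± 27.9), so their order turned between the groups on this scale, by differences close to their spread. Per kb of the longest transcript it did not turn, and Ccnd3 was first in all 6 libraries. The same held per kb of the longest protein-coding transcript, which leaves out the retained introns annotated for Ccnd3, at 845 ± 57.4 CPM per kb in WT against 355 ± 8.31 for Cdk4. The protein-coding length was added after the data had been seen. Over 6 libraries the log2 range, with an offset of 0.5 CPM, was larger for Ccnd1 than for 95.1% of tested genes, for Ccnd2 than for 85.7% and for Cdk6 than for 69.4%. It was larger for Ccnd3 than for 29.2% and for Cdk4 than for 16.2%.

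KO2 is a line in which many genes differ, so each member was set beside its neighbours on the chromosome. On the log2 scale with the same offset, 26.3% of tested genes were higher in KO2 than in every other library and 39.2% were lower, while 14.7% differed by at least 1 from the mean of the other 5. The median of this difference over all tested genes was -0.07. Ccnd2 was higher in KO2 by 1.25. Of the 20 nearest tested genes, 10 on each side, 18 were also higher, with a median of 0.46, and 5 were raised at least as much as Ccnd2. In the other 5 libraries the same neighbours had medians of -0.19 to -0.01. Ccnd2 therefore lies among genes that were mostly higher in KO2, and its own value was larger than their median.

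Ccnd1 gave the opposite picture. It was lower in KO2 by 2.99, while its 11 neighbours (10 on one side and 1 towards the chromosome end) had a median of 0.08 and ranged from -0.71 to 2.61. None of the 11 was as low. Cdk6 was higher by 0.71, and its 10 neighbours, all on one side, had a median of -0.10, with a highest value of 0.32. With 5 neighbours the median was 0.27. Cdk4 and Ccnd3 were lower by 0.24 and 0.14, close to their neighbours' medians of -0.13 and -0.20.

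**Figure D4:**
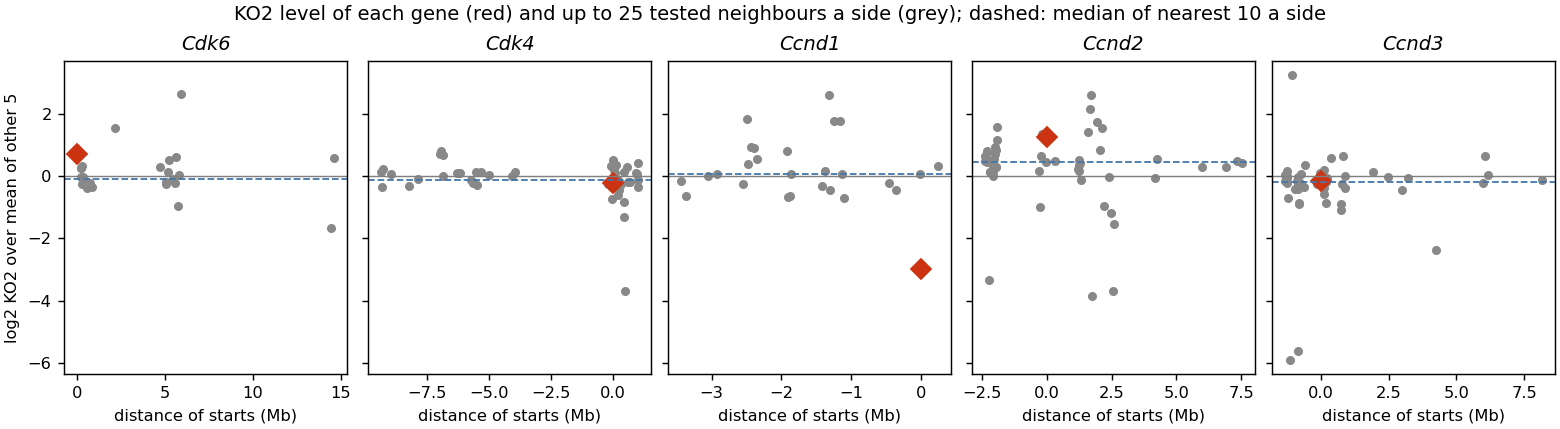
Log2 level in KO2 over the mean of the other 5 libraries (vertical axis) against the distance in Mb between gene starts (horizontal axis) for each member (red diamond) and up to 25 tested neighbours on each side (grey), with the median of the nearest 10 a side dashed. Ccnd2, at 1.25, sits above a raised median of 0.46, and Ccnd1, at -2.99, lies far below its neighbours' median of 0.08.

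Genes whose centred log2 CPM over the 6 libraries came closest to each member were sought among 10076 genes, by root mean square distance. For Ccnd1 they were Rcan1 (distance 0.15), an inhibitor of calcineurin, and Hcst (0.16), an adaptor of activating immune receptors. Rcan1 lay at 15.6 to 17.3 CPM in 5 libraries and at 1.69 CPM in KO2, without the lower values of Ccnd1 in KO1 and KO3. Hcst lay at 4.14 to 5.48 CPM in 5 libraries and at 1 count (0.0496 CPM) in KO2. For Ccnd2 they were Pon3 (0.08), a paraoxonase, and Bcl7a (0.09), a subunit of SWI/SNF remodelling complexes, which lay at 63.4 to 88.3 CPM in 5 libraries and at 194 CPM in KO2. For Cdk6 they were Gm16534 (0.11) and Heatr7b1 (0.11), and for Cdk4 Fiz1 (0.02) and 2010321M09Rik (0.02). For Ccnd3 they were the mitochondrial carrier Slc25a22 (0.03) and Fastk (0.04). With 6 libraries such likeness describes these lines and was not tested.

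The other genes of the pathway were taken from 7 lists. Of 49 listed genes 47 were tested, and 0 passed edgeR over all genes (5 at an unadjusted p under 0.05), beside 0.0% and 9.45% of all tested genes. DESeq2 called 3 of the 47, beside 1.94% of all genes it tested, and limma-voom 0. Without KO2 DESeq2 called 5, beside 5.95%, and without WT2 and KO2 it called 4, beside 2.89%. The median log2 fold change was 0.03. All KO lines lay above all WT lines for 6 and below for 7, beside 10.6% and 8.68% of all tested genes. With TMM scaling these were 3 and 9, beside 8.53% and 11.0%. The lists were chosen with earlier results of these data known.

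**Figure D5:**
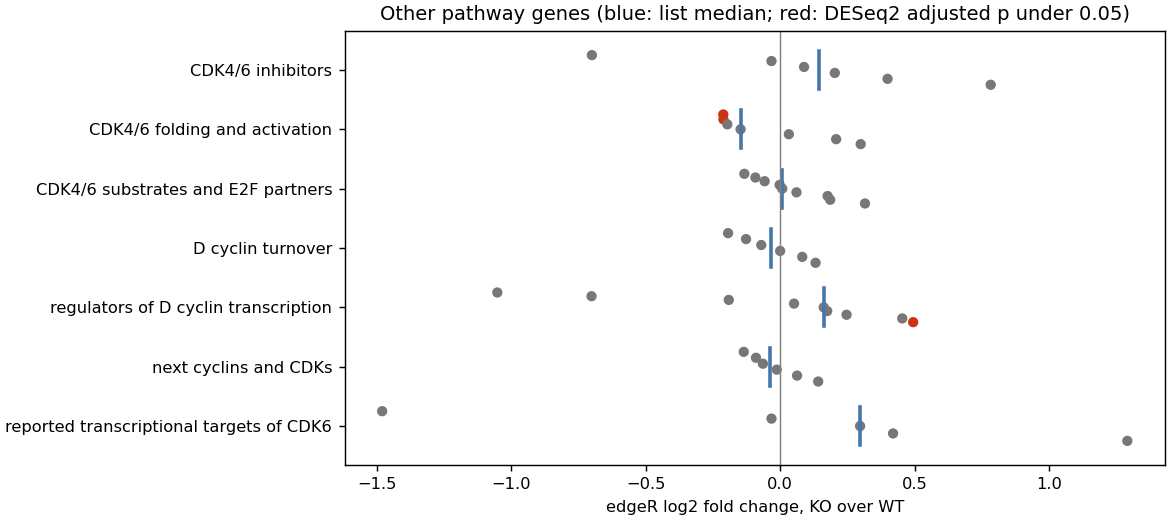
EdgeR log2 fold change of KO over WT (horizontal axis) of each tested gene in 7 lists of pathway genes, with the list medians as blue lines and genes called by DESeq2 in red. The medians run from -0.15 for folding and activation to 0.30 for reported CDK6 targets, and 3 genes were called.

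INK4 proteins bind the CDK4 and CDK6 kinases, whereas CIP/KIP proteins bind assembled complexes of a cyclin and a CDK. Of 6 tested INK4 and CIP/KIP genes 0 were called by edgeR, DESeq2 or limma-voom, beside 0.0%, 1.94% and 0.0% of all genes tested. At an unadjusted edgeR p under 0.05 there were 0 of 6, beside 9.45% of all tested genes. Cdkn1b, encoding p27, lay at 30.6 ± 0.980 CPM in WT and 40.8 ± 8.49 in KO (SD, n = 3; log2 fold change 0.40 ± 0.18 SE, edgeR adjusted p = 0.553), and 0.23 without KO2. All KO lines lay above WT for Cdkn1b in CPM, as did 10.6% of tested genes, by a narrow margin (31.6 in KO1 against 31.5 in WT2). With TMM scaling KO1 lay below WT2 and the groups overlapped. Cdkn1a, encoding p21, lay at 12.9 to 24.4 CPM in WT against 14.6 in KO1, 53.8 in KO2 and 24.8 in KO3 (log2 fold change 0.78 ± 0.54 SE, edgeR adjusted p = 0.668; 0.08 without KO2). The INK4 genes Cdkn2a and Cdkn2b, both chosen after their values were seen, were lowest in KO2. Cdkn2a had 31.4 CPM in WT1, 22.9 in WT2 and 39.4 in WT3, against 55.8 in KO1, 38.8 in KO3 and 0.0496 (1 count) in KO2. Cdkn2b was at 0 in KO2 and at 4.65 to 8.03 CPM in the other 5 libraries.

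Genes that fold and activate the kinases gave 2 of the 3 DESeq2 calls. Of 7 tested, 0 passed edgeR and 3 had an unadjusted p under 0.05, beside 9.45% of all tested genes, and DESeq2 called 2, beside 1.94%. Hsp90ab1, a chaperone on which CDK4 and CDK6 depend together with CDC37, lay at 6841 ± 246 CPM in WT and 5995 ± 49.3 in KO (SD, n = 3; log2 fold change -0.21 ± 0.06 SE, edgeR adjusted p = 0.481, DESeq2 adjusted p = 0.0417). Hsp90aa1 lay at 304 ± 3.46 and 267 ± 15.2 CPM (-0.21 ± 0.05, edgeR adjusted p = 0.479, DESeq2 adjusted p = 0.0169). The DESeq2 call of Hsp90aa1 was lost without WT2 and KO2 (adjusted p = 0.243), while that of Hsp90ab1 was not (adjusted p = 0.0214). For both genes all KO lines lay below all WT lines, also with TMM scaling, as did 8.68% of tested genes in CPM.

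Among 9 regulators of D cyclin transcription, 0 passed edgeR and 2 had an unadjusted p under 0.05, beside 9.45% of all tested genes. Foxo1, a factor that restrains proliferation when growth signalling is low, lay at 115 CPM in WT1, 130.5 in WT2 and 121 in WT3, against 178 in KO1, 159 in KO2 and 189 in KO3. All KO lines lay above all WT lines, as did 10.6% of tested genes (log2 fold change 0.49 ± 0.08 SE, edgeR adjusted p = 0.479). DESeq2 called the rise (adjusted p = 8.73e-06), 1 call among the 9 genes, beside 1.94% of all genes it tested (0.705% higher). Fos, a subunit of AP-1, was low throughout, at 1.24 ± 0.0947 CPM in WT and 0.605 ± 0.185 in KO (SD, n = 3; edgeR adjusted p = 0.507).

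The remaining lists had 0 calls by edgeR, DESeq2 or limma-voom with all 6 libraries, beside 0.0%, 1.94% and 0.0% of all genes tested. At an unadjusted edgeR p under 0.05 they had 0 genes, beside 9.45% of all tested genes. Of 9 kinase substrates and E2F partners, with a median log2 fold change of 0.01, E2f2 (0.32 ± 0.19 SE; 0.11 without KO2) and E2f4 (-0.13 ± 0.07 SE; -0.0835 without WT2) had the smallest p-values. Of 6 tested genes of D cyclin turnover, with a median of -0.04, these were Ambra1 (0.13 ± 0.09 SE; 0.0628 without KO2), the receptor that directs D cyclins to degradation, and Fbxo31 (-0.19 ± 0.13 SE; -0.0771 without KO2). Of 6 cyclins and CDKs that act after the D cyclins, with a median of -0.04, they were Ccna2 (-0.14 ± 0.10 SE) and Ccne1 (-0.09 ± 0.10 SE; -0.0188 without WT2). DESeq2 called Ccna2, the cyclin of S phase, lower without KO2 (-0.24, adjusted p = 0.0161) and without WT2 and KO2 (-0.27, adjusted p = 0.0196).

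Of 5 reported targets of CDK6, Egr1 and Pim1 had the smallest p-values. Egr1, an immediate early transcription factor, lay at 11.4 CPM in WT1, 13.5 in WT2 and 11.8 in WT3, against 17.3 in KO1, 16.6 in KO2 and 58.5 in KO3. KO3 was far above the other lines, and the log2 fold change of 1.29 ± 0.52 (SE; edgeR adjusted p = 0.529) was 0.47 without KO3. DESeq2 called Egr1 without KO2 (1.58, adjusted p = 0.0214) and not without WT2 and KO2 (adjusted p = 0.355). Pim1, a serine/threonine kinase, had a log2 fold change of 0.42 ± 0.22 (SE; edgeR adjusted p = 0.584), and of 0.19 without KO2. Flt3, named after its values were seen, was called by DESeq2 without WT2 and KO2, beside 2.89% of the genes tested there. DESeq2 did not call it with all 6 libraries (adjusted p = 0.766) or without KO2 alone. It lay at 20.2 CPM in WT1, 9.39 in WT2 and 16.1 in WT3, against 8.90 in KO1, 0 in KO2 and 8.03 in KO3. WT2, left out of the fit with the call, was the WT line nearest to KO1 and KO3.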

How the data were processed

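The deposited table held raw counts per gene symbol, 1 column per library. The submitters' processing notes name STAR, Trim Galore, DESeq2 and GRCm38. Which versions, counter, annotation, read length and strandedness the authors used is not given in the sources used here. CPM is the count scaled by the library total. Groups were compared with edgeR 4.0.16 under R 4.3.3 (TMM, filterByExpr, robust quasi-likelihood F test, Benjamini-Hochberg over 10896 genes, threshold 0.05, two-sided). SE and intervals come from its F statistic. DESeq2 1.42.0 and limma-voom (limma 3.58.1) were alternatives, and all were tested on simulated data. The simulation used the same spread setting for every gene and no outlying library, so it does not show how the tools handle KO2. Gene positions came from RefSeq (GRCm38.p6, 10644 tested genes placed), lengths and transcripts from GENCODE M21. Log2 levels of neighbours and likeness used an offset of 0.5 CPM.

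The members and lists were chosen with earlier results of these data known. Genes named were the members, for each list up to 2 genes with the smallest edgeR p, and for each member the 2 genes with mean log2 CPM of at least 1 most like it. Oraov1, Tspan31 and Bysl were named for overlap. Cdkn2a, Cdkn2b, Flt3, Lyz2 and Itgam fall outside this rule and were named after their values were seen. WT and KO share replicate numbers. Deviations from the group mean correlated across genes at 0.36, 0.67 and 0.47 for numbers 1, 2 and 3, each above 0.1, so the numbers were also fitted as a block. The labels do not say what a number marks, and WT1 correlated at 0.44 with KO3. Intervals cover counting error only where called Poisson or Wilson.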

Additional observations from a re-analysis of the deposited data

How the results depend on the processing

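With 3 lines a group and KO2 far from the others, the intervals of Ccnd1, Ccnd2 and Cdk6 are wide. Counts were high for all 5 genes (752 or more per library), so counting error was small beside the spread between lines. edgeR called 0 genes in every fit run, and DESeq2 called 218 with all libraries, 684 without KO2 and 340 without WT2 and KO2. The replicate block changed no call by adjusted p for the members (Cdk6 0.09, Cdk4 -0.10, Ccnd1 -1.14, Ccnd2 0.61, Ccnd3 0.16). For the ratios the block could change no call, and the differences (0.19, -1.37, 0.45 and 1.82) are the same with it by design. The exact permutation p cannot fall below 0.1 without the block, and was 0.25 or more with it. With the block Ccnd2 had an edgeR unadjusted p of 0.0288 and an adjusted p of 0.528, against 0.111 and 0.592 without it. limma-voom gave -1.21 for Ccnd1.

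Leaving out 1 library at a time gave log2 fold changes from -0.22 to 0.31 for Cdk6, -0.13 to -0.05 for Cdk4, -1.15 to -0.28 for Ccnd1, 0.20 to 0.93 for Ccnd2 and 0.11 to 0.23 for Ccnd3. The lowest size for Ccnd1 and Ccnd2 and the turned sign of Cdk6 came without KO2. Cdk6 was also negative without WT2 and KO2 (-0.24) and in DESeq2 without KO2 (-0.23) or both (-0.25). The log2 ratio of Cdk6 to Cdk4 ran from -0.16 to 0.38, and was -0.18 without WT2 and KO2. That of Ccnd2 to Ccnd3 ran from -0.0175 to 0.75. The pooled kinase level ran from -0.11 to -0.0071 and the pooled cyclin level from 0.02 to 0.155. DESeq2 called Ccnd1 without KO2 (-0.28) and without both (-0.29), and Ccnd2 (0.38) and Ccnd3 (0.30) without both.

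The difference in the Ccnd3 share, 4.58 percentage points per kb of exon union, was 0.549 with no division by length and 2.05 with the longest protein-coding transcript. With 5 neighbours a side the KO2 medians were 0.27 for Cdk6, -0.082 for Cdk4 and -0.24 for Ccnd3. Of the other named genes, Gm16534 (-0.22 without KO2, -0.20 without WT2 and KO2, and -0.23 and -0.20 in DESeq2), Heatr7b1 (-0.14, -0.16, -0.14 and -0.16) and Rcan1 (0.0119 without KO2 in edgeR and 0.0096 in DESeq2) changed sign. Leaving out 1 library at a time gave -0.22 to 0.37 for Gm16534 and -0.85 to 0.0119 for Rcan1. The cause was not tested.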
